A study of Homo sapiens with 14 samples.

Results

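The miR-99/100 and miR-125 families were followed through 2 assays that enrich small RNA carrying N7-methylguanosine (m7G), a guanosine with a methyl group on its base. The members are 10 mature miRNAs, taken by name from the 2588 mature miRNAs counted in each assay, and every value below describes these rows or the miRNAs made from the same transcripts. They comprise hsa-miR-99a-5p, hsa-miR-99a-3p, hsa-miR-99b-5p, hsa-miR-99b-3p, hsa-miR-100-5p, hsa-miR-125a-5p, hsa-miR-125a-3p, hsa-miR-125b-5p, hsa-miR-125b-1-3p and hsa-miR-125b-2-3p, written without the species prefix from here on.

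All libraries came from A549, a cell line of human lung adenocarcinoma, and total RNA was decapped before any pulldown. In BoRed-seq, the RNA, also dephosphorylated at its 5′ ends, was reduced with NaBH4 while free m7GTP was present, low pH removed the reduced bases, and a biotin probe for the resulting abasic sites was captured on streptavidin beads (Red, n = 2). The controls of this assay went through the same steps with NaBH4 that acid had quenched beforehand (Ctrl, n = 2). In m7G-RIP-seq, an antibody against m7G pulled down the RNA (IP, n = 5), and RNA set aside before that step served as the reference (Input, n = 5). The labels give replicate numbers without stating whether the replicates were separate cultures, so p-values measure the spread between these libraries, which may be technical. A single cell line was used, and bulk libraries cannot tell fewer cells holding a miRNA from less of it per cell.

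A miRNA is cut from a hairpin in a longer transcript, and either arm of the hairpin (5p or 3p) can be loaded into the silencing complex, where bases 2 to 8, the seed, pair with target messenger RNAs. miR-125 is the vertebrate counterpart of lin-4 of the nematode, the founding miRNA, and miR-99 and miR-100 belong to the old miR-10 superfamily. Members of both families are transcribed together with let-7 miRNAs from clusters that arose by duplication, and miR-125 and let-7 are known as repressors of growth and developmental timing genes, among them LIN28. The comparison of interest is therefore whether miRNAs that share a seed, a hairpin or a transcript were pulled down alike.

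The mature sequences are shown first because the members divide by seed, and because near-identical sequences differed in the pulldowns. RefSeq held all 10 members on GRCh38.p14, and the seed is in capitals. The first 3 sequences share 1 seed, the next 2 another.
miR-99a-5p: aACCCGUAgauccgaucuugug
miR-100-5p: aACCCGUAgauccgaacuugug
miR-99b-5p: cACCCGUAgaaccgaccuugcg
miR-125a-5p: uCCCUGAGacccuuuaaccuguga
miR-125b-5p: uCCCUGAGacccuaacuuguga
miR-99a-3p: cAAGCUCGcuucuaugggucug
miR-99b-3p: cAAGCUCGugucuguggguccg
miR-125a-3p: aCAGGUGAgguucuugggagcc
miR-125b-1-3p: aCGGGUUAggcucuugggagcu
miR-125b-2-3p: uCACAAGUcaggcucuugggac

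The 5p members of the miR-99/100 family are almost the same molecule. With positions counted from 1 at the 5′ end and the base of miR-99a-5p given first, miR-100-5p differs from it by U16A alone, and miR-99b-5p by A1C, U11A, U16C and U21C. None of these substitutions adds or removes a G, and each of the 3 miRNAs carries 5 G. miR-125a-5p and miR-125b-5p share their first 13 bases and carry 4 G each. The 3p arms are more varied. miR-99a-3p and miR-99b-3p share a seed and differ at 4 positions, miR-125a-3p and miR-125b-1-3p differ at 4 positions and hold 9 G each, and miR-125b-2-3p differs from miR-125b-1-3p at 17 positions and holds 6 G. The single other miRNA in the tables with either 5p seed, miR-4319, had a count of 0 in all 14 libraries.

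The hairpins lie in 3 clusters, each with a let-7 hairpin between a miR-99/100 and a miR-125 hairpin. On chromosome 19, plus strand, miR-99b-5p (chr19:51692618-51692639), let-7e-5p (chr19:51692793-51692814) and miR-125a-5p (chr19:51693268-51693291) follow each other with 153 and 453 bases between these arms, in an intron of SPACA6 by the GENCODE annotation. The 3p arms there are miR-99b-3p (chr19:51692656-51692677) and miR-125a-3p (chr19:51693306-51693327). On chromosome 21, plus strand, miR-99a-5p (chr21:16539101-16539122, intron of MIR99AHG) and its 3p arm (chr21:16539138-16539159) are followed by let-7c-5p (chr21:16539838-16539859) and, 50393 bases further on, by miR-125b-5p (chr21:16590253-16590274) with miR-125b-2-3p (chr21:16590290-16590311), in exons of MIR99AHG, a long noncoding RNA. On chromosome 11, minus strand, miR-100-5p (chr11:122152275-122152296), let-7a-5p (chr11:122146568-122146589), miR-125b-5p (chr11:122099809-122099830) and miR-125b-1-3p (chr11:122099769-122099790) lie in introns of MIR100HG, another long noncoding RNA. Mature miR-125b-5p is thus made by the hairpins of 2 clusters, and let-7a-5p also by hairpins on chromosomes 9 and 22, so their counts cannot be assigned to a locus.

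The Red libraries were the shallowest, with 242085 and 277498 counts, and the other 12 held between 2854811 and 14874685, so Red values are the least precise. All 6 epithelial marker miRNAs of the miR-200 and miR-205 type were detected in every group. They summed to 397 to 786 CPM (counts scaled to a common library total) in Red against 193 to 228 in Ctrl, and to 174 to 216 in IP against 343 to 1002 in Input, and the liver miRNA miR-122-5p was at 0 throughout. The 6 blood markers summed to 28.9 to 72.1 CPM in Red (miR-451a at 0) against 1.53 to 1.71 in Ctrl, and to at most 3.41 in IP and 2.69 in Input (miR-144-3p and miR-142-3p at 0 in IP). The 4 muscle markers summed to 41.3 to 43.2 CPM in Red against 0.340 to 3.42 in Ctrl, with miR-133a-3p, miR-133b and miR-206 at 0 in both, and to 3.59 to 22.2 in IP against 0.320 to 6.20 in Input. The 2 neural markers summed to 706 to 1045 CPM in Red against 609 to 697 in Ctrl, with miR-124-3p at 0 in Ctrl, and to 117 to 145 in IP against 301 to 493 in Input. The part of these markers in the results below was not tested. Among the m7G-RIP-seq libraries, replicates 4 and 5 stood apart from replicates 1 to 3 in both groups for several members. Values for each subset are given beside some of the results they move, but not beside all of them. The labels name no batch.

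A pair of the members, miR-100-5p and miR-99b-5p, were among the most counted miRNAs of the immunoprecipitates and of Input. By count, miR-100-5p ranked 2 in every Input library and miR-99b-5p ranked 5 to 7. All members together made up 14.4% ± 1.94 of Input counts and 33.1% ± 4.50 of IP counts (SD, n = 5). Their share ran from 12.5% to 17.2% in the Input libraries and from 28.3% to 38.8% in the IP libraries. miR-100-5p was the most counted miRNA of 4 IP libraries and miR-99b-5p of the fifth, IP replicate 2, and no member led any other library. In BoRed-seq the members held 2.80% ± 0.276 of Ctrl counts and 4.10% ± 0.0553 of Red counts (SD, n = 2). These shares move with miR-21-5p, the most abundant control miRNA, which went from 42.3% ± 3.57 in Input to 5.39% ± 0.774 in IP (SD, n = 5) and from 79.7% ± 1.03 in Ctrl to 26.8% ± 0.147 in Red (SD, n = 2). Of the counts other than miR-21-5p, the members held 25.0% ± 2.56 in Input and 35.0% ± 5.04 in IP (SD, n = 5), whereas the direction turned in BoRed-seq, with 13.8% ± 0.656 in Ctrl and 5.60% ± 0.0867 in Red (SD, n = 2).

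**Figure D1:**
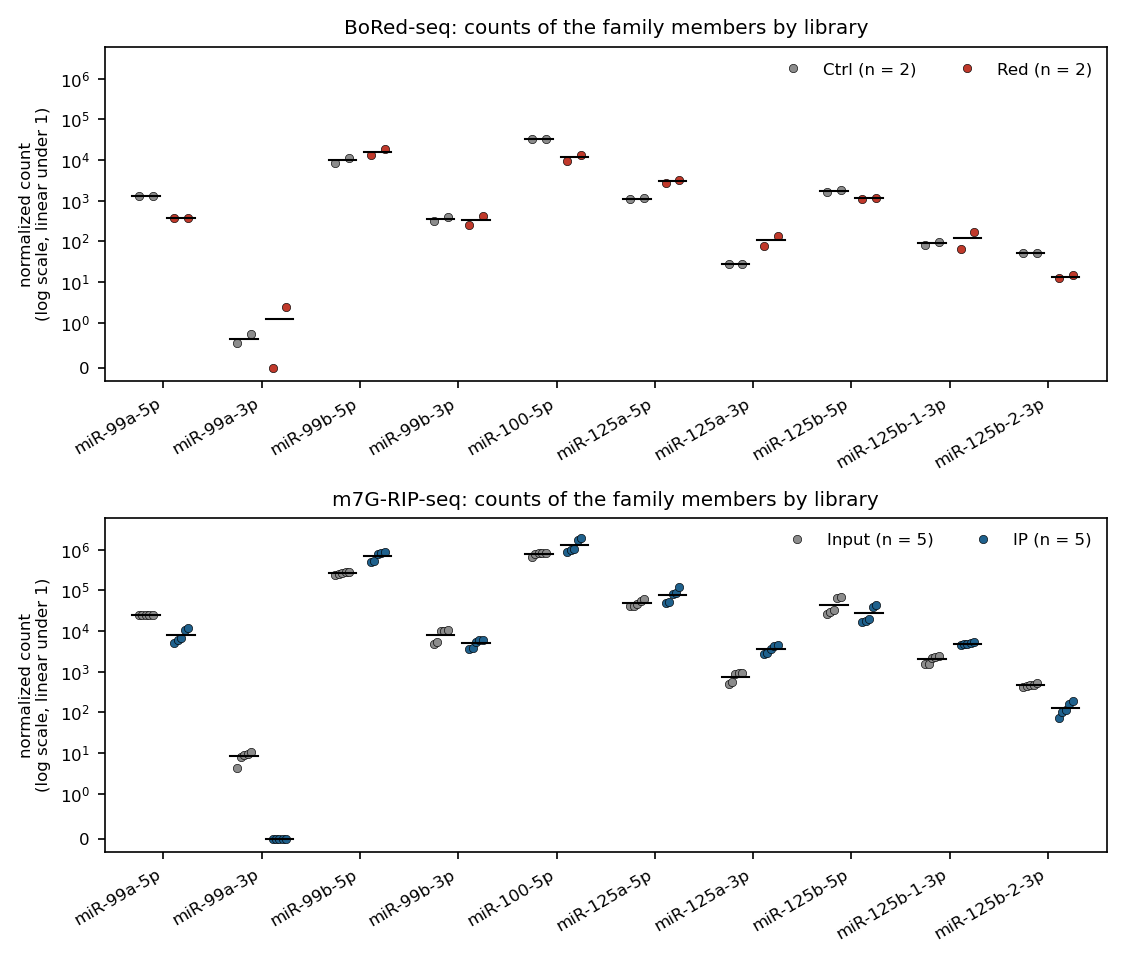
Normalized counts (size factors of DESeq2, logarithmic axis that is linear under 1) of the 10 members in each library of BoRed-seq (top, n = 2 per group) and m7G-RIP-seq (bottom, n = 5 per group); points are libraries and bars are group means. miR-99a-5p lies lower in the pulldown of both assays and miR-99b-5p higher, while miR-100-5p lies lower in Red and higher in IP.

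Before any pulldown the order of the members was led by miR-100-5p. Mean normalized counts in Input, which are counts scaled by a size factor per library, were 779069 ± 68910 for miR-100-5p, 262193 ± 22285 for miR-99b-5p, 49591 ± 9304 for miR-125a-5p, 44584 ± 20474 for miR-125b-5p and 24339 ± 307 for miR-99a-5p (SD, n = 5). All members have 22 to 24 bases, so these levels need no correction for length. How evenly the libraries recovered different miRNAs was not tested. The libraries of miR-125a-5p and miR-125b-5p overlapped, and the other neighbours among these 5p members did not. Among the 3p arms, miR-99b-3p stood at 8055 ± 2701, miR-125b-1-3p at 2022 ± 421, miR-125a-3p at 753 ± 213 and miR-125b-2-3p at 462 ± 37.4 normalized counts (SD, n = 5), the last pair with overlapping libraries. miR-99a-3p was near the limit of detection with 8.23 ± 2.45 (SD, n = 5). Ctrl libraries went through the capture steps too, so they are not RNA before pulldown. They also had miR-100-5p first at 32662 ± 880 and miR-99b-5p next at 9745 ± 1600 (SD, n = 2). The other 5p members stood in another order, with miR-125b-5p at 1694 ± 121, miR-99a-5p at 1271 ± 6.76 and miR-125a-5p at 1114 ± 56.0 (SD, n = 2). A read that fits both miR-125b hairpins may have been counted once or at each of them. Its deposited counts were odd in 6 of 14 libraries, so not every read was counted at both, but the level of miR-125b-5p against the other members remains uncertain, while its changes between groups rest on the same counting in every library.

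The first comparison asked which members the BoRed-seq chemistry enriched. Of the 10 members, 9 passed the count filter, and the Wald test of DESeq2 with Benjamini-Hochberg adjustment over all 400 miRNAs tested called 3 enriched (miR-125a-3p, miR-125a-5p and miR-99b-5p) and 3 depleted (miR-125b-2-3p, miR-99a-5p and miR-100-5p) in Red. Across all miRNAs tested, 32.2% were called enriched and 27.3% depleted, 59.5% in all. The Red and Ctrl libraries did not overlap for 7 of the 9 members, against 82.8% of all miRNAs tested. The median log2 enrichment was −0.05 over the 9 members and −0.09 over all miRNAs tested. Calls of this assay depend on the scaling: total-count factors raised the median log2 enrichment of the 453 miRNAs fitted by 1.09, from −0.32 to 0.77, and gave 5 members enriched and 0 depleted. Over all 391 miRNAs tested with these factors, 175 were called enriched and 46 depleted.

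In the second comparison, the antibody enriched 5 members (miR-125a-3p, miR-99b-5p, miR-125b-1-3p, miR-100-5p and miR-125a-5p) and depleted 3 (miR-125b-2-3p, miR-99a-5p and miR-99b-3p), again of 9 past the filter, by the same test over 670 miRNAs. Of all miRNAs tested, 27.3% were called enriched and 29.9% depleted, 57.2% in all. IP and Input libraries did not overlap for 6 of the 9 members, against 42.4% of all miRNAs tested. The median log2 enrichment was 0.64 over the members and 0.02 over all. Total-count factors raised the median of all miRNAs by 0.36 here, and all 9 members kept their direction.

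Among the 5p members of the miR-99/100 family, miR-99a-5p was depleted and miR-99b-5p enriched in both assays, and miR-100-5p took opposite directions. miR-99a-5p was counted at 1276 and 1266 normalized counts in Ctrl and at 370 and 382 in Red. It was at 24208, 24367, 24214, 24053 and 24851 in Input and at 6641, 4947, 6058, 10658 and 11544 in IP, in the order of replicates 1 to 5. Every pulldown library lay below every control library, and the Input values were nearly level while IP replicates 4 and 5 were higher than the other IP libraries. Its log2 enrichment was −1.76 ± 0.29 in BoRed-seq (SE, adjusted p = 6.37e-09, DESeq2) and −1.61 ± 0.25 under the antibody (SE, adjusted p = 1.47e-09, DESeq2). Within m7G-RIP-seq it was −2.09 in replicates 1 to 3 and −1.17 in replicates 4 and 5. With total-count factors the BoRed-seq value kept its sign at −0.63 but was no longer called (adjusted p = 0.128, DESeq2), and relative to the median of all miRNAs fitted it was −1.44 with the size factors used here and −1.40 with total-count factors.

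miR-99b-5p, which shares the seed of miR-99a-5p and comes from the chromosome 19 cluster, moved the other way. It was counted at 10876 and 8614 normalized counts in Ctrl and at 18106 and 13146 in Red. In Input it was at 232072, 245489, 271019, 281580 and 280808, and in IP at 798615, 897002, 816234, 516073 and 508681. No pulldown library overlapped a control library, and here IP replicates 4 and 5 were the lowest of their group. Enrichment on the log2 scale was 1.43 ± 0.21 in m7G-RIP-seq (SE, adjusted p = 6.33e-11, DESeq2), with 1.71 in replicates 1 to 3 and 0.83 in replicates 4 and 5. In BoRed-seq it was 0.68 ± 0.30 (SE, adjusted p = 0.0398, DESeq2), a call lost with the quasi-likelihood test of edgeR (0.50, adjusted p = 0.0572), with TMM factors (0.50, adjusted p = 0.145, DESeq2) and with no count filter (0.20, adjusted p = 0.599, DESeq2). It was also lost when any 1 of the 4 libraries was left out, with a log2 enrichment from 0.48 to 0.81. The call was kept with total-count factors (1.77, adjusted p = 2.86e-07, DESeq2) and with the replicate number as a block (0.67, adjusted p = 0.00536, DESeq2).

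miR-100-5p, which differs from miR-99a-5p by a single base, was depleted by the chemistry, as miR-99a-5p was, and enriched by the antibody, as miR-99b-5p was. Its normalized counts were 33284 and 32039 in Ctrl and 13603 and 9683 in Red. They were 666602, 847949, 768204, 805873 and 806715 in Input and 977628, 853508, 1033469, 1686523 and 1949378 in IP. Both Red libraries lay below Ctrl, and all IP libraries lay above Input, IP replicate 2 by a narrow margin over Input replicate 2 and IP replicates 4 and 5 by the widest. The log2 enrichment was −1.49 ± 0.29 in BoRed-seq (SE, adjusted p = 8.70e-07, DESeq2) and 0.74 ± 0.26 under the antibody (SE, adjusted p = 0.00916, DESeq2). The m7G-RIP-seq value was 0.29 in replicates 1 to 3 and 1.14 in replicates 4 and 5, and it was past the threshold in each subset. With total-count factors the BoRed-seq value stayed negative at −0.40 but was not called (adjusted p = 0.289, DESeq2). miR-99a-5p and miR-100-5p share their first 15 bases, so a read error at the base that parts them would move a read from one to the other, and how often this happened was not tested.

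Ratios of seed-sharing miRNAs inside each library need no size factor. The log2 ratio of miR-100-5p to miR-99a-5p was 4.78, 5.12, 4.99, 5.07 and 5.02 in Input and 7.20, 7.43, 7.41, 7.31 and 7.40 in IP. It rose by 2.35 ± 0.07 (SE), a 5.11-fold change with no overlap (two-sided exact permutation test, p = 0.00794, the smallest that 5 against 5 libraries allow, and 0.0111 after Benjamini-Hochberg adjustment over 14 ratios). Replicates 4 and 5 did not stand apart in this ratio. In BoRed-seq it was 4.70 and 4.66 in Ctrl and 5.19 and 4.66 in Red, so that the groups overlapped and the difference of 0.24 ± 0.27 (SE) was within the spread.

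The ratio of miR-99b-5p to miR-99a-5p was higher in the pulldown of both assays. In log2 units it went from 2.93 ± 0.23 to 5.35 ± 0.36 in BoRed-seq (SD, n = 2) and from 3.43 ± 0.12 to 6.51 ± 0.92 in m7G-RIP-seq (SD, n = 5), differences of 5.37-fold and 8.48-fold. The m7G-RIP-seq change passed the exact permutation test (two-sided p = 0.00794, adjusted 0.0111), with 3.80 in replicates 1 to 3 and 2.01 in replicates 4 and 5 on the log2 scale, whereas 2 libraries against 2 cannot give a p under 0.333, and the BoRed-seq values are described only. miR-99b-5p against miR-100-5p was higher by 2.18 ± 0.14 (SE) in Red, without overlap. In m7G-RIP-seq its change of 0.73 ± 0.41 (SE) missed the threshold (exact permutation p = 0.159), with IP values of −0.29, 0.07, −0.34, −1.71 and −1.94 against −1.52, −1.79, −1.50, −1.52 and −1.52 in Input, and the sign turned between replicates 1 to 3 (1.42) and replicates 4 and 5 (−0.30).

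The makeup of the family differed between pulldown and control accordingly. In Ctrl, miR-100-5p made up 74.8% ± 2.25 of the 5p counts of the miR-99/100 family, miR-99b-5p 22.2% ± 2.40 and miR-99a-5p 2.91% ± 0.150 (SD, n = 2). In Red, miR-99b-5p was the larger with 56.5% ± 0.138, miR-100-5p held 42.1% ± 0.484 and miR-99a-5p 1.40% ± 0.347 (SD, n = 2). Input resembled Ctrl, with 73.1% ± 1.56 for miR-100-5p, 24.6% ± 1.50 for miR-99b-5p and 2.30% ± 0.188 for miR-99a-5p (SD, n = 5). In IP, miR-100-5p held 62.9% ± 13.7, miR-99b-5p 36.8% ± 13.8 and miR-99a-5p 0.386% ± 0.0871 (SD, n = 5). The share of miR-99a-5p was thus lower in the pulldown of each assay, and the split between miR-99b-5p and miR-100-5p varied widely among IP libraries.

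**Figure D2:**
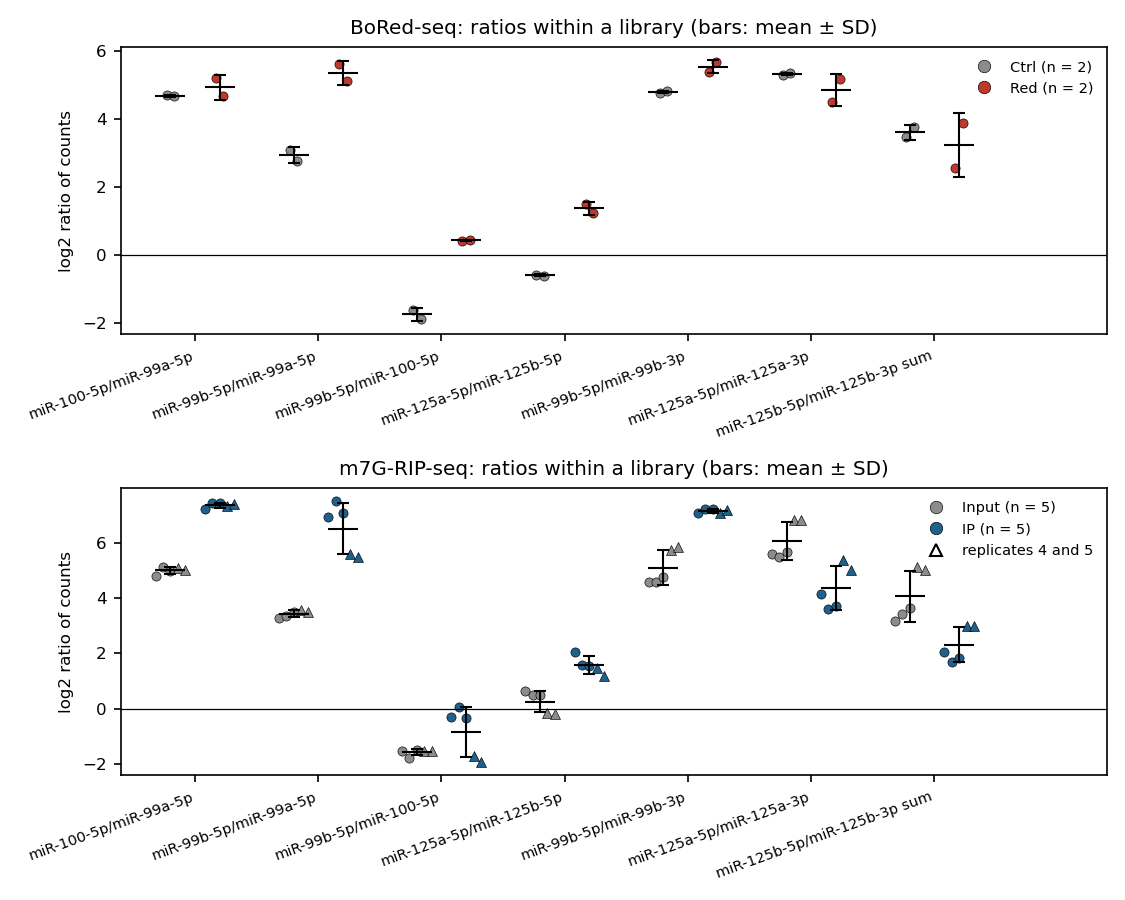
Log2 ratios of counts within each library for seed-sharing 5p members and for the arms of the same hairpin, in BoRed-seq (top) and m7G-RIP-seq (bottom); points are libraries, bars are the mean ± SD, and triangles are replicates 4 and 5 of m7G-RIP-seq. The ratio of miR-125a-5p to miR-125b-5p lies below 0 in Ctrl and above 1 in Red, and between −0.20 and 0.63 in Input against 1.17 to 2.06 in IP.

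The 5p members of the miR-125 family also had log2 enrichments of opposite sign in each assay, except with total-count factors in BoRed-seq, where both were positive. miR-125a-5p was counted at 1075 and 1154 normalized counts in Ctrl and at 3159 and 2777 in Red, and the Red libraries lay well above Ctrl. In m7G-RIP-seq it was at 41164, 41725, 46712, 62443 and 55910 in Input and at 80698, 51625, 48815, 118976 and 87208 in IP. The groups overlapped, because IP replicates 2 and 3 lay within the range of Input, although IP lay above Input in each replicate number. Its log2 enrichment was 1.41 ± 0.27 in BoRed-seq (SE, adjusted p = 5.83e-07, DESeq2) and 0.64 ± 0.28 under the antibody (SE, adjusted p = 0.0372, DESeq2). The latter call was lost in 7 of 10 fits that left out a library, with log2 enrichments from 0.44 without IP replicate 4 to 0.75, and with no count filter (0.61, adjusted p = 0.0831, DESeq2). With the replicate number as a block it was kept (0.58, adjusted p = 0.00624, DESeq2).

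miR-125b-5p was not called in either assay, although this depended on the fit. It was at 1609 and 1780 normalized counts in Ctrl and at 1118 and 1177 in Red, with a log2 enrichment of −0.56 ± 0.27 (SE, adjusted p = 0.0662, DESeq2) that turned to 0.57 with total-count factors. It was called depleted by the quasi-likelihood test of edgeR (−0.74, adjusted p = 0.0130), with TMM factors (−0.74, adjusted p = 0.0236, DESeq2) and with no count filter (−1.05, adjusted p = 0.00114, DESeq2). In Input it was at 26547, 29593, 33234, 69342 and 64202, and in IP at 19322, 17224, 16900, 42981 and 38854. Replicates 4 and 5 were about as far above replicates 1 to 3 in Input as in IP, and in every replicate number IP lay below Input. Its log2 enrichment there was −0.72 ± 0.39 (SE, adjusted p = 0.0999, DESeq2), and with the replicate number as a block it was −0.73 with an adjusted p of 2.92e-06 (DESeq2), past the threshold. It was also past the threshold within replicates 1 to 3 (−0.78) and within replicates 4 and 5 (−0.74), and it was called without Input replicate 1 (−0.92, adjusted p = 0.0455, DESeq2) or IP replicate 4 (−0.94, adjusted p = 0.0293, DESeq2).

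The ratio of miR-125a-5p to miR-125b-5p was higher in every pulldown library than in any control library of its assay. Its log2 values were −0.58 and −0.63 in Ctrl and 1.50 and 1.24 in Red, a 3.92-fold change. They were 0.63, 0.50, 0.49, −0.15 and −0.20 in Input and 2.06, 1.58, 1.53, 1.47 and 1.17 in IP, a rise of 1.31 ± 0.23 (SE) or 2.48-fold (two-sided exact permutation p = 0.00794, adjusted 0.0111). miR-125a-5p accordingly went from 39.7% ± 0.502 to 72.0% ± 2.56 of the 5p counts of the family in BoRed-seq (SD, n = 2) and from 54.3% ± 6.80 to 74.5% ± 4.12 in m7G-RIP-seq (SD, n = 5).

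Among the 3p arms, those of miR-125a and miR-125b-1, which hold 9 G each, had the highest values. miR-125a-3p had the highest log2 enrichment of all members in both assays. It was at 27.1 and 28.3 normalized counts in Ctrl and at 137 and 75.9 in Red (deposited counts of 37 and 31 in Red), and at 861, 946, 912, 551 and 495 in Input against 4540, 4279, 3690, 2843 and 2724 in IP. The groups stood far apart in m7G-RIP-seq, while the Red libraries were unlike each other, though both lay above Ctrl. Enrichment on the log2 scale was 1.93 ± 0.52 in BoRed-seq (SE, adjusted p = 0.000508, DESeq2), a call lost without Ctrl replicate 1 (1.79, adjusted p = 0.106) or Red replicate 1 (1.60, adjusted p = 0.0662). In m7G-RIP-seq it was 2.26 ± 0.26 (SE, adjusted p = 4.01e-17, DESeq2).

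miR-125b-1-3p rose under the antibody, from 2448, 2313, 2208, 1573 and 1568 normalized counts in Input to 4550, 5147, 4722, 5267 and 4780 in IP. The IP libraries were close to each other and well above Input, for a log2 enrichment of 1.28 ± 0.18 (SE, adjusted p = 1.27e-11, DESeq2). Under BoRed-seq it was at 95.8 and 81.1 in Ctrl and at 174 and 66.1 in Red. The Red libraries fell on either side of Ctrl, and the log2 enrichment of 0.42 ± 0.52 (SE, adjusted p = 0.502, DESeq2) turned negative without Red replicate 1 (−0.28) and with no count filter (−0.064), whereas total-count factors gave a call (1.46, adjusted p = 0.00945). miR-125b-2-3p, from the other miR-125b hairpin, was depleted in both assays. It was at 51.2 and 50.6 in Ctrl and at 14.8 and 12.2 in Red, where it rested on deposited counts of 4 and 5, and at 522, 460, 466, 426 and 436 in Input against 164, 194, 71.6, 102 and 113 in IP. Its log2 enrichment was −1.83 ± 0.27 in m7G-RIP-seq (SE, adjusted p = 6.97e-11, DESeq2). In BoRed-seq it was −1.93 ± 0.76 (SE, adjusted p = 0.0211, DESeq2), a call lost without any of the 4 libraries (−2.02 to −1.86) and with total-count factors (−0.81, adjusted p = 0.443).

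Of the 3p arms of the miR-99 hairpins, miR-99a-3p was near the limit of detection, and miR-99b-3p was called depleted in m7G-RIP-seq only. miR-99b-3p was at 399 and 308 normalized counts in Ctrl and at 430 and 257 in Red, with overlapping groups and a log2 enrichment of −0.05 ± 0.37 (SE, adjusted p = 0.907, DESeq2), which total-count factors turned to 1.02 (adjusted p = 0.0178). In m7G-RIP-seq it was at 9778, 10318, 9963, 5323 and 4893 in Input and at 5955, 6094, 5508, 3817 and 3547 in IP. Replicates 4 and 5 were lower in both groups, so that the groups overlapped although IP lay below Input in each replicate number. There the log2 enrichment was −0.69 ± 0.29 (SE, adjusted p = 0.0310, DESeq2), a call lost in 5 of 10 fits that left out a library (−0.84 to −0.59), with the quasi-likelihood test of edgeR (−0.66, adjusted p = 0.0502) and with total-count factors (−0.32, adjusted p = 0.311). miR-99a-3p had 6 to 18 deposited counts in Input and 0 in all IP libraries, and it did not pass the filter of either assay. Taking 3 counts per library as the limit that a count of 0 allows, it was at least 1.98-fold lower in IP. Its BoRed-seq counts were 2 and 2 in Ctrl and 0 and 1 in Red, too few for a comparison. miR-100-3p, the other arm of the miR-100 hairpin, had 0 to 6 counts in Input, 2 and 4 in Ctrl and 0 in all Red and IP libraries.

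The arms of the same hairpin were unequally recovered by the antibody. In m7G-RIP-seq the log2 ratios of 5p to 3p arms of miR-99b, miR-125a and miR-125b separated IP from Input without overlap (two-sided exact permutation p = 0.00794 for each, adjusted 0.0111). The ratio rose by 2.05 ± 0.29 for miR-99b, from 5.09 ± 0.64 to 7.14 ± 0.07, so the IP libraries were alike and the Input libraries spread (SE of the change, SD of the means, n = 5). It rose by 2.52 in replicates 1 to 3 and by 1.34 in replicates 4 and 5. It fell by 1.70 ± 0.47 for miR-125a, and by 1.76 ± 0.50 for miR-125b-5p against the sum of its 3p arms (SE). That sum joins 2 hairpins, whose arms miR-125b-1-3p and miR-125b-2-3p had log2 enrichments of 1.28 and −1.83. The fall for miR-125b therefore does not describe each hairpin. For miR-99a no change can be read, because the 3p arm had no counts in IP and the value follows the number added to each count (1.93 with 0.5 added, 0.11 with 2 added). In BoRed-seq the changes were 0.74 ± 0.14 for miR-99b, −0.48 ± 0.33 for miR-125a and −0.38 ± 0.68 for miR-125b (SE), of which the first 2 did not overlap between Red and Ctrl.

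The let-7 5p arms of the same clusters had higher BoRed-seq enrichments than any member. let-7 miRNAs repress growth genes such as RAS and HMGA2, and the mature 5p arms of the clusters are printed here because they hold more G than the 5p members, with 9, 9 and 8 G.
let-7e-5p: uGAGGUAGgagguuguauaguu
let-7c-5p: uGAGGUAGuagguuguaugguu
let-7a-5p: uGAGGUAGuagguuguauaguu
In BoRed-seq the log2 enrichment was 3.86 ± 0.29 for let-7e-5p, 4.55 ± 0.30 for let-7c-5p and 4.29 ± 0.32 for let-7a-5p, and in m7G-RIP-seq it was 2.25 ± 0.23, 1.16 ± 0.15 and 0.95 ± 0.15 in the same order (SE), all called by DESeq2. The ratio of miR-99b-5p to let-7e-5p differed by −3.16 ± 0.15 on the log2 scale between Red and Ctrl, that of miR-125a-5p to let-7e-5p by −2.42 ± 0.18 and that of miR-99a-5p to let-7c-5p by −6.29 ± 0.27 (SE), without overlap. In m7G-RIP-seq the last ratio fell by 2.85 ± 0.24 and that of miR-125a-5p to let-7e-5p by 1.60 ± 0.24 (SE), both past the exact permutation test (two-sided p = 0.00794, adjusted 0.0111). The ratio of miR-99b-5p to let-7e-5p had a change of −0.79 ± 0.39 (SE, exact permutation p = 0.0476, adjusted 0.0556), which was −0.10 in replicates 1 to 3 and −1.84 in replicates 4 and 5.

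The let-7 3p arms, passenger strands of the same hairpins, gave values on both sides. In m7G-RIP-seq let-7e-3p (−2.09 ± 0.41, adjusted p = 1.32e-06) and let-7a-2-3p (−1.81 ± 0.49, adjusted p = 0.000528) were depleted, and let-7c-3p was called enriched at 1.11 ± 0.51 (SE, adjusted p = 0.0490, DESeq2), a call lost with the replicate block (0.95, adjusted p = 0.0813), with the quasi-likelihood test of edgeR (1.13, adjusted p = 0.0934) and in 9 of 10 fits that left out a library (0.80 to 1.34). In BoRed-seq let-7e-3p was at −1.89 ± 1.26 (SE, adjusted p = 0.184, DESeq2) on 1 and 2 counts in Red, and let-7c-3p and let-7a-2-3p had 0 counts in Red. Of the 3 remaining ratios, between members that share a cluster, 2 passed the test in the antibody pulldown. Both of these use miR-125b-5p, which 2 clusters make, so neither is a ratio within a single transcript. The ratio of miR-100-5p to miR-125b-5p rose by 1.39 ± 0.29 (SE, exact permutation p = 0.00794, adjusted 0.0111), that of miR-99a-5p to miR-125b-5p fell by 0.96 ± 0.30 (SE, exact permutation p = 0.0159, adjusted 0.0202), and that of miR-99b-5p to miR-125a-5p changed by 0.81 ± 0.41 (SE, exact permutation p = 0.127, adjusted 0.137). In replicates 4 and 5 these values were 1.88, −0.43 and 0.08 in the same order. Between Red and Ctrl the 3 ratios differed by −0.95 ± 0.30, −1.19 ± 0.08 and −0.74 ± 0.26 (SE), each without overlap, so the first and the last had the opposite sign there.

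**Figure D3:**
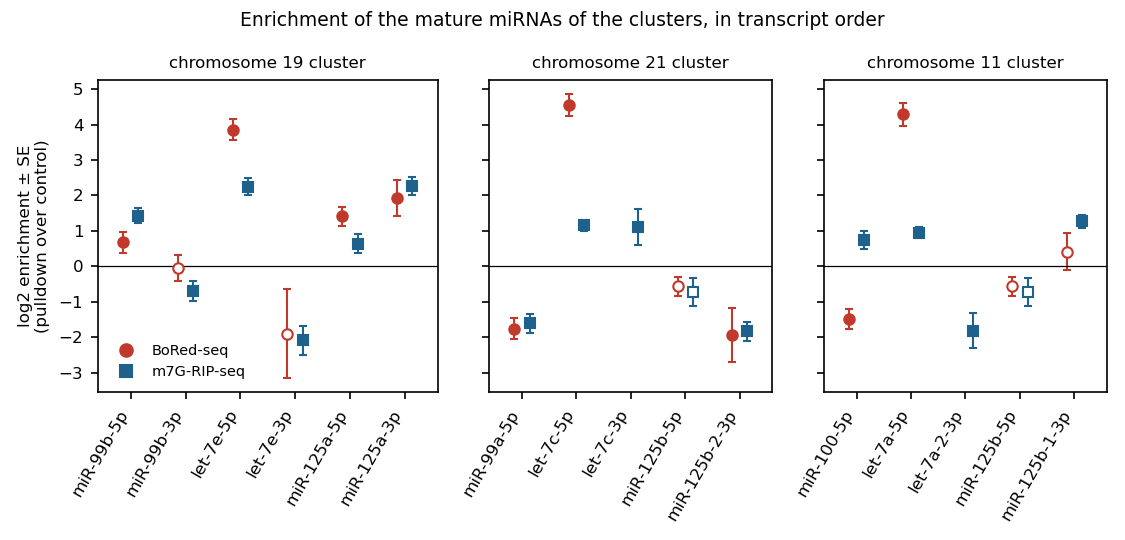
Log2 enrichment with its SE for the mature miRNAs of the chromosome 19, 21 and 11 clusters, arms in transcript order, in BoRed-seq (circles, n = 2 per group) and m7G-RIP-seq (squares, n = 5 per group); filled symbols were called by DESeq2 at an adjusted p under 0.05, miR-125b-5p is drawn in both clusters that make it, and miRNAs with no adjusted p are left out. The let-7 5p arms stand between 3.86 and 4.55 in BoRed-seq, above every member.

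Whether the assays differed was tested for each miRNA with a two-sided z test on the DESeq2 log2 enrichments and their standard errors, adjusted over the 384 miRNAs tested in both. Of the 9 members 1 differed, miR-100-5p, against 38.0% of all miRNAs. Its BoRed-seq enrichment minus its m7G-RIP-seq enrichment was −2.23 (95% interval −2.99 to −1.47, z test on DESeq2 estimates, adjusted p = 1.18e-07). It also differed in every alternative tried for this test. The difference for miR-99b-5p was −0.75 (−1.47 to −0.03, adjusted p = 0.0882) and that for miR-125a-5p was 0.77 (0.01 to 1.53, adjusted p = 0.102, DESeq2 estimates), neither past the threshold. For the other 6 members the intervals included 0. They were narrowest for miR-99a-5p (−0.90 to 0.61) and widest for miR-125b-2-3p (−1.68 to 1.49), so differences of that size cannot be told at this depth. The let-7 5p arms of the clusters differed, with BoRed-seq higher by a log2 of 1.61 for let-7e-5p, 3.39 for let-7c-5p and 3.34 for let-7a-5p.

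**Figure D4:**
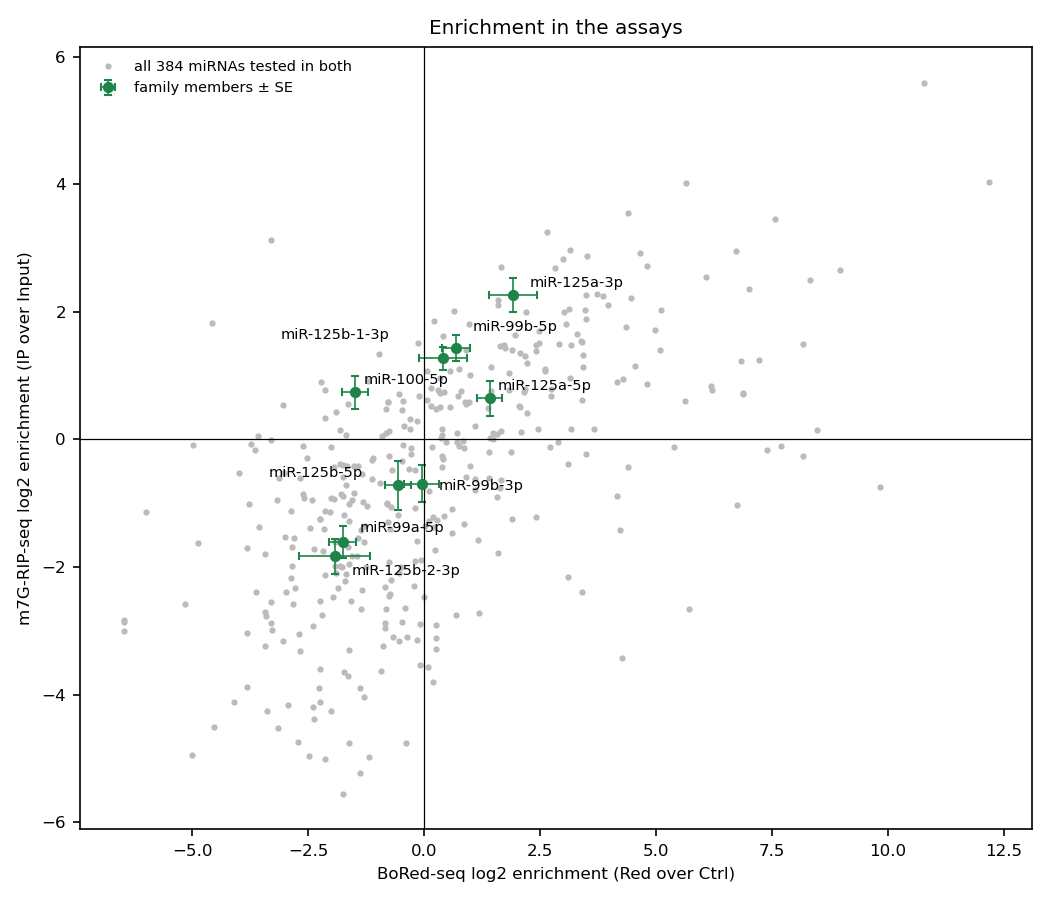
Log2 enrichment in BoRed-seq (horizontal) against m7G-RIP-seq (vertical) for the 384 miRNAs tested in both (gray) and the 9 members tested (green, with SE on each axis). miR-100-5p, at −1.49 and 0.74, is the member whose called enrichments have opposite signs.

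The content of G varied with enrichment across all miRNAs, and the members are given beside it as a description, since miRNAs of the same library are not independent replicates. Over miRNAs with a RefSeq sequence, the number of G and the log2 enrichment had a Pearson correlation of 0.37 in BoRed-seq (355 miRNAs) and 0.42 in m7G-RIP-seq (602 miRNAs), with a median of 6 G. miR-125a-3p and miR-125b-1-3p, with 9 G, were the highest and third-ranked members in m7G-RIP-seq, but miR-99b-3p with 8 G was at −0.05 and −0.69 in the assays, and miR-99b-5p with 5 G was enriched while miR-99a-5p with the same 5 G was depleted.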

How the data were processed

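Small RNA of A549 cells was sequenced in 14 libraries. The deposited values are raw read counts of 2588 mature miRNAs per library. According to the methods of the study, the authors trimmed adaptors with Trimmomatic, mapped reads end to end to GRCh38/hg38 with STAR, keeping at most 1 mismatch, at most 10 loci and only the best score, and summarised them with featureCounts over miRBase mature miRNAs. The submitters' processing notes name Bowtie2 in place of STAR. The authors tested with DESeq2. How reads with several best loci were counted is not given in the sources used here. Reads of near-identical miRNAs can be exchanged by such mapping. Every count column matched 1 sample.

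From these counts, DESeq2 1.42.0 in R 4.3.3 was fitted to all miRNAs that reached 10 counts in 2 or more BoRed-seq libraries, or in 5 or more m7G-RIP-seq libraries, with median-of-ratios size factors and its Wald test. Benjamini-Hochberg adjustment ran over all miRNAs with an adjusted p, and calls were made at 0.05. Of the 453 miRNAs fitted in BoRed-seq, 400 had an adjusted p. edgeR 4.0.16 served as an alternative, beside other size factors, filters and subsets of libraries. Log2 ratios within a library used counts with 0.5 added and were compared by two-sided exact permutation of libraries (scipy 1.17.1, Python 3.11.15, pandas 2.3.3). The scripts were checked on simulated data.

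Groups and replicate numbers came from the sample titles. In m7G-RIP-seq, IP and Input libraries of the same number deviated together from their group means (correlations over miRNAs of 0.18, 0.15, 0.15, 0.31 and 0.39). For replicates 3 and 4, however, the library of the same number was not the best match. The later replicates stood apart from the earlier ones in both groups, which can give such correlations without pairing. Pairing by number is therefore uncertain. The fit with the number as a block is an alternative, given where it changed a call. The permutation tests of ratios treated the libraries as unpaired. No pair of replicates agreed within sampling noise. Totals per library ran from 242085 to 14874685 counts, and the floor given for a count of 0 covers counting error only, while the 95% intervals rest on DESeq2 standard errors, which include the spread between libraries.

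The miRNAs named are the members, the let-7 arms of their clusters, miR-100-3p, miRNAs with the seed of a 5p member, miR-10a-5p and miR-10b-5p, and for each 5p member the 2 miRNAs most like it. Marker lists covered epithelial, blood, muscle, neural and liver miRNAs. The members and lists were chosen with earlier results of these data known.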

Additional observations from a re-analysis of the deposited data

Results flagged for a closer look

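The log2 ratio of miR-99b-5p to miR-100-5p was −1.79 in Input replicate 2, while the other 4 Input libraries lay between −1.52 and −1.50. The gap to the nearest library was 0.932 of the whole range of the group, above the critical value of 0.71 that Dixon's test sets for 5 libraries. It was the 1 group to pass that value of 47 tested, and chance alone passes it in about 5% of groups.

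miR-100-5p had a log2 enrichment of −1.49 ± 0.29 under the chemistry and 0.74 ± 0.26 under the antibody (SE). The difference of −2.23 passed the z test between the assays on DESeq2 estimates (adjusted p = 1.18e-07).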

How the results depend on the processing

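The largest dependence was on the size factors of BoRed-seq. Total-count factors, which shifted the median of all miRNAs by 1.09 in BoRed-seq and by 0.36 in the antibody assay, gave 5 members enriched and 0 depleted in BoRed-seq instead of 3 and 3, and turned miR-99b-3p to 1.02 and miR-125b-5p to 0.57. Over all miRNAs tested in BoRed-seq, total-count factors called 175 of 391 enriched and 46 depleted, against 129 of 400 and 109 as reported. TMM factors shifted the BoRed-seq median by −0.19. With no count filter miR-125b-1-3p turned to −0.064 in BoRed-seq. Without 1 of its 4 libraries, the BoRed-seq log2 enrichment ran from −0.32 to 0.20 for miR-99b-3p and from −0.28 to 0.90 for miR-125b-1-3p. The change of the log2 ratio then ran from −0.022 to 0.51 for miR-100-5p to miR-99a-5p and from −1.05 to 0.29 for miR-125b-5p to its 3p arms. In m7G-RIP-seq replicates 4 and 5, miR-99b-5p to miR-100-5p turned to −0.30. The causes were not tested.

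Members that differed between the assays numbered 3 with total-count factors (miR-100-5p, miR-125a-5p, miR-99b-3p), 3 in replicates 1 to 3 (miR-100-5p, miR-125a-5p, miR-99b-5p), 2 in replicates 4 and 5 (miR-100-5p, miR-125b-1-3p) and 3 by an interaction term over all 14 libraries (miR-100-5p, miR-99b-5p, miR-125b-1-3p), against 1 as reported. Of all miRNAs tested in both assays, the shares that differed were 45.6%, 38.8%, 45.1% and 38.0% in the same order, against 38.0% as reported.

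With the replicate block, BoRed-seq gave 3 members enriched and 3 depleted, with miR-125b-5p gained (−0.56, adjusted p = 0.0471, DESeq2) and miR-125b-2-3p lost (−1.92, adjusted p = 0.0685, DESeq2); its 2 pairs (correlation of deviations 0.11) are too few to show pairing. In m7G-RIP-seq the block gave 5 members enriched and 4 depleted, and apart from miR-125b-5p and let-7c-3p changed no call of a named miRNA. Over all miRNAs tested, the block called 119 of 356 enriched and 98 depleted in BoRed-seq. In m7G-RIP-seq it called 192 of 670 enriched and 237 depleted. Of the log2 enrichments under all alternatives, 127 of BoRed-seq and 291 of m7G-RIP-seq kept direction and side of the threshold, while 20 and 41 lost and 9 and 6 gained a call. A further 6 BoRed-seq values turned direction, and these tallies cover the let-7 arms and the miR-10 relatives beside the members. The denominator without miR-21-5p was chosen after seeing the data. Depth limits the Red values of the 3p arms.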

Other observations

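miR-10a-5p and miR-10b-5p, relatives of miR-99 and miR-100 in the wider miR-10 family, were called depleted in both assays, with calls that depended on the fit for miR-10a-5p. miR-10a-5p was at 7490 and 8274 normalized counts in Ctrl and at 3426 and 2428 in Red, a log2 enrichment of −1.43 ± 0.29 (SE, adjusted p = 3.81e-06, DESeq2). In m7G-RIP-seq it was at −0.42 ± 0.18 (SE, adjusted p = 0.0369, DESeq2), with overlapping libraries and a call kept in 5 of 10 fits that left out a library and lost with the quasi-likelihood test of edgeR (−0.40, adjusted p = 0.0705) and with TMM factors (−0.40, adjusted p = 0.0603, DESeq2). Total-count factors ended both calls of miR-10a-5p, with −0.34 in BoRed-seq (adjusted p = 0.383, DESeq2) and −0.07 in m7G-RIP-seq (adjusted p = 0.749, DESeq2). miR-10b-5p was at 845 and 902 in Ctrl and at 241 and 196 in Red, a log2 enrichment of −2.01 ± 0.32 (SE, adjusted p = 1.46e-09, DESeq2), against −0.91 ± 0.19 in m7G-RIP-seq (adjusted p = 7.51e-06, DESeq2), and with total-count factors it was −0.90 and −0.59, still called. The differences between the assays were −1.01 for miR-10a-5p (adjusted p = 0.0127) and −1.10 for miR-10b-5p (adjusted p = 0.0116, z test on DESeq2 estimates), and neither passed with total-count factors (−0.26 and −0.31).

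The miRNAs whose log2 normalized counts followed a 5p member most closely over the 10 m7G-RIP-seq libraries, among 312 compared, are given as a description, since the libraries share 2 groups and the contrast between replicates 1 to 3 and replicates 4 and 5. They were miR-493-3p and miR-589-5p for miR-99a-5p (Pearson correlations of 0.99 each), miR-25-5p and miR-2110 for miR-99b-5p (0.98 each), and miR-574-3p and miR-106b-3p for miR-100-5p (0.94 each). For miR-125a-5p they were miR-222-3p (0.94) and miR-663a (0.93), and for miR-125b-5p miR-149-5p (0.97) and miR-23a-3p (0.95).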
